A study of Mus musculus with 10 samples.

Results

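The osteocalcin cluster of the mouse was followed through osteoblast differentiation of MC3T3-E1 cells, an established pre-osteoblast line derived from mouse calvaria. It was taken as 4 genes of chromosome 3, Bglap, Bglap2, Bglap3 and Gm21956, whose Ensembl identifiers were looked up among the 40620 genes of the count table and the 40603 genes of the RPKM table. All 4 were present in both tables. RNA was sequenced at 5 stages with 2 replicates each, named A and B, as paired-end reads of 51 bases. Subconfluent cells and Confluent cells, at day 0, were kept in growth medium, α-MEM with 10% serum. The 24h, 14d and 21d cells were in osteogenic medium, which also held β-glycerophosphate at 10 mM and ascorbic acid at 50 µg/ml. All groups are the same line, so they share its history in culture, and the labels do not say whether replicates came from separate cultures, so that spreads between replicates may be technical. The 4 genes were selected on their counts and RPKM over the stages and lanes, which were already known, and these values are therefore given as a description without a test.

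Osteocalcin, the product of the Bglap genes, is a small protein that osteoblasts secrete into bone matrix late in their differentiation. Before secretion its glutamate residues are carboxylated to Gla residues by a vitamin K-dependent enzyme and its propeptide is cut off, and the Gla residues then bind calcium and hydroxyapatite. A form with few Gla residues enters the blood and has been studied as a hormone. The mouse carries several copies of the gene, of which Bglap and Bglap2 are known as the bone forms and Bglap3 as the osteocalcin-related gene.

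In GRCm38 the cluster covers 15849 bases, at chr3:88368616-88384464. Bglap (chr3:88383501-88384464), Bglap2 (chr3:88377736-88378699) and Bglap3 (chr3:88368616-88372743) are protein-coding genes that all lie on the reverse strand. Gm21956 (chr3:88376023-88377075), annotated as an unprocessed pseudogene, lies on the forward strand between Bglap3 and Bglap2, and 660 bases separate it from the 3′ end of Bglap2. A further forward-strand pseudogene, Gm6821 (chr3:88381772-88382844), lies in the same manner between Bglap2 and Bglap, 656 bases past the 3′ end of Bglap. Paqr6, which codes for a membrane receptor of the progestin and adipoQ receptor family, ends 74 bases before Bglap3 begins.

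**Figure D1:**
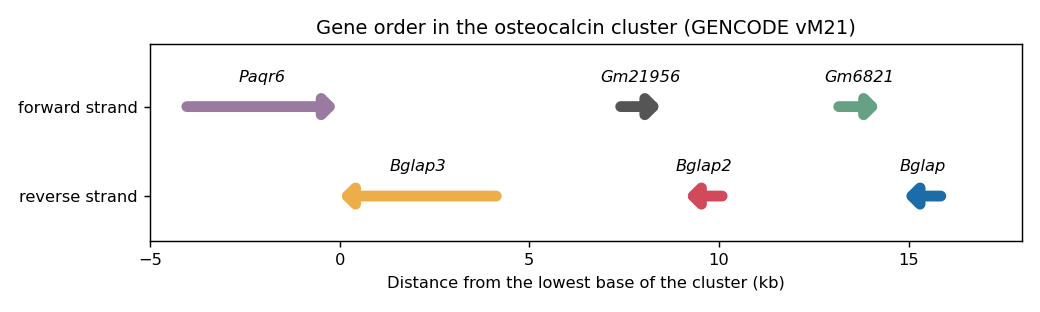
Gene order in the cluster, with distance in kb on the x axis counted from the lowest base of Bglap3 and the strand on the y axis; each arrow spans 1 annotated gene and points 5′ to 3′. Each of Gm21956 and Gm6821 lies just past the 3′ end of an osteocalcin gene, on the opposite strand.

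The coding sequences of the 3 osteocalcin genes are shown because their similarity bears on how reads of 51 bases can be divided among them. They were taken from the GENCODE vM21 transcripts (GRCm38, reverse strand), with exons joined, and capitals mark the 13 positions at which the 3 genes are not all alike.
Bglap: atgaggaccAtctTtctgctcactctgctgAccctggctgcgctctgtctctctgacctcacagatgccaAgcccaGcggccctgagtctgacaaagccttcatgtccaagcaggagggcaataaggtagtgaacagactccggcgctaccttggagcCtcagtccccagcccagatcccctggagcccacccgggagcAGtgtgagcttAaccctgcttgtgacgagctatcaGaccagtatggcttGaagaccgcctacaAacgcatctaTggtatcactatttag
Bglap2: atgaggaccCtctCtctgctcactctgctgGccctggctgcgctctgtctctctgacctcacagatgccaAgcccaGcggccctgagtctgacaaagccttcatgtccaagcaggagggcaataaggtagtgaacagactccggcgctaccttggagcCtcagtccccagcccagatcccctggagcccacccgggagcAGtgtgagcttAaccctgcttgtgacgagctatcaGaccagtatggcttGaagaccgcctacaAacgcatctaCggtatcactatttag
Bglap3: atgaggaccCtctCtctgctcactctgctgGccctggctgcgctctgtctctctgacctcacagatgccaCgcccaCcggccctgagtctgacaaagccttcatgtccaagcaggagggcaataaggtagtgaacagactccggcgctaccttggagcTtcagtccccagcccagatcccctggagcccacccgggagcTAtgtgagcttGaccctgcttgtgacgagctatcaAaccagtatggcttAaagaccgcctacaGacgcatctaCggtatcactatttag
Each coding sequence was 288 bases long, and 275 of these bases were identical in all 3 genes. Bglap differed from Bglap2 at 4 bases (98.61% identity) and from Bglap3 at 13 (95.49%), and Bglap2 differed from Bglap3 at 9 (96.88%). These differences changed 3, 9 and 6 amino acids of the 95 codons, respectively. Over the whole transcripts, 290 of the 421 stretches of 51 bases in Bglap2 (68.88%) also occurred in Bglap, and 52 (12.35%) occurred in no other gene of the cluster. The corresponding share of stretches found in no other gene was 43.66% for Bglap and 93.17% for Bglap3, whose transcripts carry long parts that the others lack.

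Gm21956 is not a copy of an osteocalcin gene. None of its 472 stretches of 51 bases occurred in Bglap, Bglap2 or Bglap3, even when 2 mismatches were allowed, and its longest identical run with any of them was 12 bases. Its transcript instead matched a transcript of Paqr6 at 512 of 522 bases (98.08%), and that of Gm6821 matched it at 537 of 542 (99.08%). The label of an osteocalcin pseudogene therefore holds for the position of Gm21956 and not for its sequence. A stretch of 120 bases within 1 exon is given for the 3 related genes from GENCODE vM21, with capitals at the 7 positions where they are not all alike. It lies at chr3:88376339-88376458 in Gm21956, chr3:88382099-88382218 in Gm6821 and chr3:88367219-88367338 in Paqr6, on the forward strand.
Gm21956: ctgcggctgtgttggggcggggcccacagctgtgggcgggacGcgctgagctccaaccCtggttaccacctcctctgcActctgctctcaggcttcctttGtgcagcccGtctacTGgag
Gm6821: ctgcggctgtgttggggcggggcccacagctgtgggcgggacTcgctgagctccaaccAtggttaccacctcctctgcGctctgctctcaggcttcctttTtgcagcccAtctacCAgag
Paqr6: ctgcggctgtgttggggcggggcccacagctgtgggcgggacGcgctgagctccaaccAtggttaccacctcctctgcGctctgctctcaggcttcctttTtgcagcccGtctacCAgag
Paqr6 itself had 1 to 13 counts in every sample.

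The expression of Bglap was higher at each successive stage up to 14d. In bulk RNA, more expressing cells and more RNA per cell cannot be told apart. The Subconfluent replicates had 1.11 and 3.89 RPKM, the Confluent replicates 12.9 and 16.7 RPKM, and the 24h replicates 39.3 and 21.3 RPKM. At 14d the replicates were at 1197 and 1034 RPKM and at 21d at 1087 and 995 RPKM. The values of successive stages were apart up to 14d, whereas those of 14d and 21d overlapped. With 2 replicates per stage this is a description only, and the share of all genes with such separate values was not computed. By its RPKM Bglap moved from place 15174 and 11757 among all genes in Subconfluent cells to places 241 to 342 at 14d and 21d.

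Bglap2 had the highest RPKM of the 4 genes in every sample. RPKM is divided by gene length, listed as 467 bases for Bglap2, 614 for Bglap, 2274 for Bglap3 and 522 for Gm21956. By raw counts, Bglap3 was highest in Subconfluent replicate A (108 against 77 for Bglap2), and Bglap in Subconfluent replicate B (74 against 72). The order in Subconfluent cells thus depends on these lengths. In the Confluent and 24h samples Bglap2 had 1.03 to 1.07 times the count of Bglap but 1.36 to 1.40 times its RPKM. In 21d replicate B these ratios were 1.07 and 1.41. Most of the lead of Bglap2 over Bglap in these samples thus comes from the listed lengths. The transcripts that gave the coding sequences had 440 bases for Bglap and 471 for Bglap2, the reverse of the listed order. Bglap2 was at 1.60 and 4.97 RPKM in Subconfluent cells, 18.1 and 23.3 RPKM in Confluent cells and 53.4 and 30.0 RPKM at 24h. It then reached 2193 and 1972 RPKM at 14d, and 2067 and 1404 RPKM at 21d. The stages kept the order seen for Bglap, with the same limit of 2 replicates and again with overlap between 14d and 21d. Replicate B of 21d stood below the 3 other late samples. In the late samples Bglap2 took places 93 to 223 among all genes.

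Bglap3 followed the same order at a lower RPKM. It had 0.461 and 0.880 RPKM in Subconfluent cells, 2.46 and 2.71 RPKM in Confluent cells and 8.09 and 4.85 RPKM at 24h. The 14d replicates were far apart, at 69.0 and 206 RPKM, while the 21d replicates had 70.1 and 60.0 RPKM. Replicate B of 14d was thus above replicate A by a ratio of 2.99, whereas replicate A was the higher for Bglap, by a ratio of 1.16, and for Bglap2, by 1.11.

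Gm21956 was the least even of the 4. It was counted once in each Subconfluent replicate, 32 and 311 times in the Confluent replicates, and 0 and 218 times at 24h. At 14d it had 22870 and 7651 counts, or 487 and 444 RPKM, and replicate A of 21d had 8464 counts, or 463 RPKM. Replicate B of 21d had 3 counts, although it was sequenced more deeply (119183287 counts against 51970507). Of the 10534 genes with at least 1000 counts in one 21d replicate, 22 had at most 3 counts in the other, and Gm21956 was one of them. Because Subconfluent cells had 1 count per replicate, and 24h replicate A had none, no fold change is given for this gene. The other pseudogene, Gm6821, was even between the late replicates, with 798 and 701 RPKM at 14d and 739 and 662 RPKM at 21d. Its replicates differed by a ratio of 5.27 in Subconfluent cells (0.607 and 0.115 RPKM) and of 2.20 at 24h (21.8 and 9.88 RPKM).

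**Figure D2:**
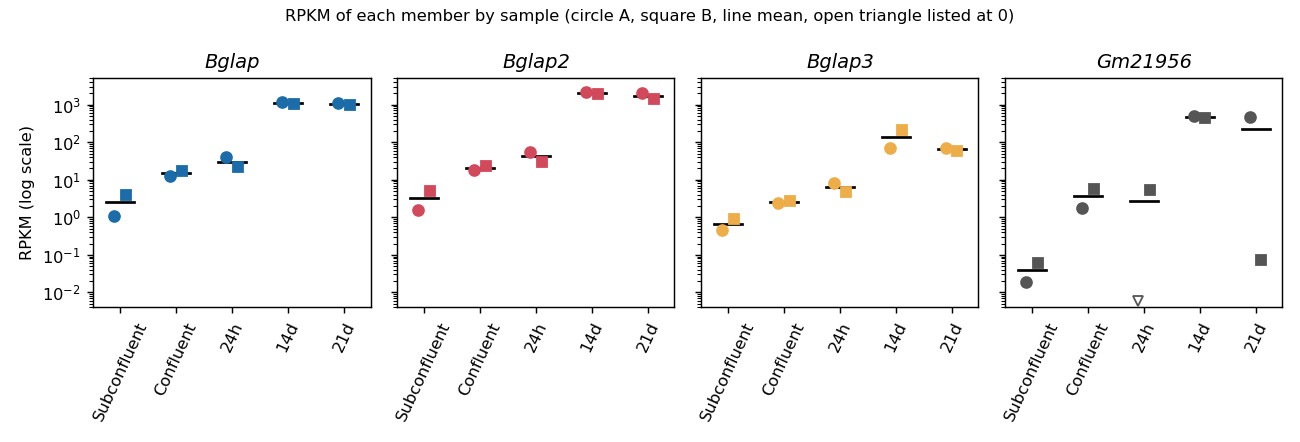
RPKM of each of the 4 genes on a log axis by stage; circles are replicate A, squares replicate B, lines the mean of the 2, and the open triangle a sample listed at 0. Bglap and Bglap2 had like profiles, the 14d replicates of Bglap3 lay at 69.0 and 206 RPKM, and Gm21956 was at 463 RPKM in one 21d replicate and near 0 in the other.

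Fitted over all 10 samples, the log2 fold change of 21d against Subconfluent cells was 8.94 for Bglap (standard error 0.71), 9.27 for Bglap2 (0.70) and 6.79 for Bglap3 (0.69). Mean expression went from 2.50 ± 1.97 to 1041 ± 65.5 RPKM (SD, n = 2) for Bglap, from 3.29 ± 2.38 to 1735 ± 469 RPKM (SD, n = 2) for Bglap2 and from 0.670 ± 0.296 to 65.1 ± 7.14 RPKM (SD, n = 2) for Bglap3. The standard errors of these fits are wide beside those of most genes discussed here, and the Subconfluent replicates of Bglap differed by a ratio of 3.51. The early libraries (Subconfluent, Confluent and 24h) carried 1 pair of indexes and the late ones (14d and 21d) another, so that early against late stages and one library set against the other cannot be told apart. Within the first set, the log2 fold change of Confluent against Subconfluent cells was 2.67 for Bglap (standard error 0.57), 2.74 for Bglap2 (0.55) and 2.00 for Bglap3 (0.59), and that of 24h against Confluent cells was 1.13 (0.51), 1.11 (0.49) and 1.42 (0.54). Within the second set, 21d against 14d gave -0.17 (0.49), -0.34 (0.48) and -1.16 (0.53). The last of these rests on replicate B of 14d, since without it Bglap3 had a log2 fold change of -0.14.

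The division of the summed RPKM among the 4 genes changed less than their level. Bglap2 held between 48.3% and 57.1% of the sum in the 10 samples and Bglap between 28.3% and 40.5%. Of the summed raw counts they held 30.1% to 47.5% and 27.3% to 43.5%. The share of Bglap3 was 14.5% and 8.97% in the Subconfluent replicates and 1.75% to 5.64% in the late samples. In raw counts, which are not divided by gene length, its share was 42.2% and 29.7% in the Subconfluent replicates. It was 7.23% to 20.8% of the counts in the late samples. Gm21956 held 12.1% to 12.6% of the summed RPKM in both 14d replicates and in replicate A of 21d. It held next to nothing in replicate B of 21d, where the share of Bglap was the highest. Over the 3 osteocalcin genes alone, Bglap2 made up 50.8% ± 0.382 of the sum in Subconfluent cells, 62.4% ± 1.42 at 14d and 60.6% ± 4.96 at 21d (SD, n = 2). Bglap3 made up 11.8% ± 3.90, 4.21% ± 3.13 and 2.31% ± 0.189 (SD, n = 2) in the same stages.

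**Figure D3:**
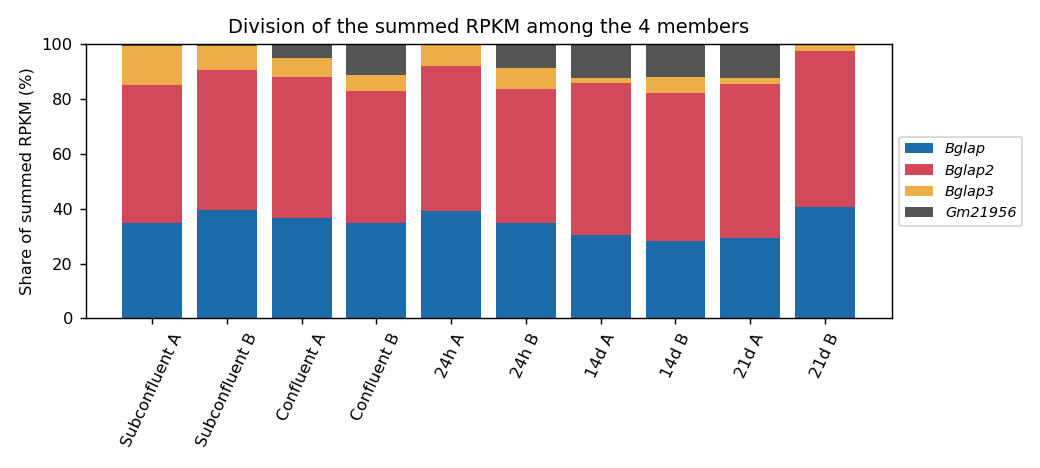
Share of the summed RPKM of the 4 genes held by each of them, in percent, with 1 stacked bar per sample. Bglap and Bglap2 held most of the sum in all samples, and Gm21956 was present at about 12% in 3 of the 4 late samples and absent from the bar of 21d replicate B.

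The count of Gm21956 stood in a near-constant proportion to that of Bglap2 in the late samples that had it. In the 3 late samples in which Gm21956 was counted, its count was 0.248, 0.252 and 0.251 of that of Bglap2. In these samples Bglap2 had 1.39, 1.45 and 1.45 times the count of Bglap. In 21d replicate B, where Gm21956 had 3 counts, the ratio of Bglap2 to Bglap was 1.07. When the count of Gm21956 was subtracted from that of Bglap2, the remainder was 1.05, 1.09, 1.08 and 1.07 times the count of Bglap in the 4 late samples. In the early samples the count of Bglap2 was 0.973 to 1.10 times that of Bglap without any subtraction, and the remainder was 0.780 to 1.09 times. Gm6821 was counted at 0.607 to 0.620 of Bglap in all late samples, so its ratio did not shift in 21d replicate B. In the early samples this ratio was 0.5 and 0.0270 in the Subconfluent, 0.641 and 0.590 in the Confluent and 0.505 and 0.422 in the 24h replicates.

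Replicate A of 14d and replicate B of 21d were each sequenced in 2 lanes that were deposited beside the merged column, which shows these counts in independent reads of 1 library. In 21d replicate B, lane L005 had 13799 counts on Gm21956 and lane L007 had 1, and the merged column held 3. The lanes summed to 66457 counts on Bglap2, but the merged column had 52435, which is 14022 fewer. The merged count of Gm21956 was 13797 below its lane sum, so nearly the same number was missing from both genes. For Bglap the merged count was 99.74% of the lane sum in this sample, and for Gm6821 it was 99.32%. The ratio of Bglap2 to Bglap was 1.40 in lane L005 and 1.10 in lane L007, and after subtraction of Gm21956 it was 1.07 and 1.10. Lane L005 thus resembled the other late samples, and lane L007 and the merged column did not.

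In 14d replicate A, lanes L006 and L007 had 16681 and 7647 counts on Gm21956, which were 0.247 and 0.255 of those on Bglap2. The merged column had 94.01% of the lane sum for Gm21956, 94.48% for Bglap2 and 99.17% for Bglap. Bglap3 was lowest at 79.03%, with 14125 counts merged against 17873 in the lanes. Lane L006 took 58.21% of the lane counts of Bglap3 (95% Wilson interval 57.48 to 58.93%, for counting error only), while it took 68.23% of the counts of all genes. In both samples lane L007 was thus high for Bglap3, with 0.351 and 0.383 times the count of Bglap against 0.229 in L006 and 0.223 in L005. In the merged columns this ratio was 0.214 at 14d replicate A, 0.738 at 14d replicate B, and 0.239 and 0.223 at 21d. Across all genes with at least 100 counts in the lanes, the merged count had a median of 100.2% of the lane sum in 14d replicate A and 100.4% in 21d replicate B. It was under 50% for 60 genes in each sample, of 15441 and 15364, and under 1% for 21 and 22 of them. How reads that fit several places were counted, and how lanes were merged, is not given in the sources used here, and the part of either in these values was not tested.

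**Figure D4:**
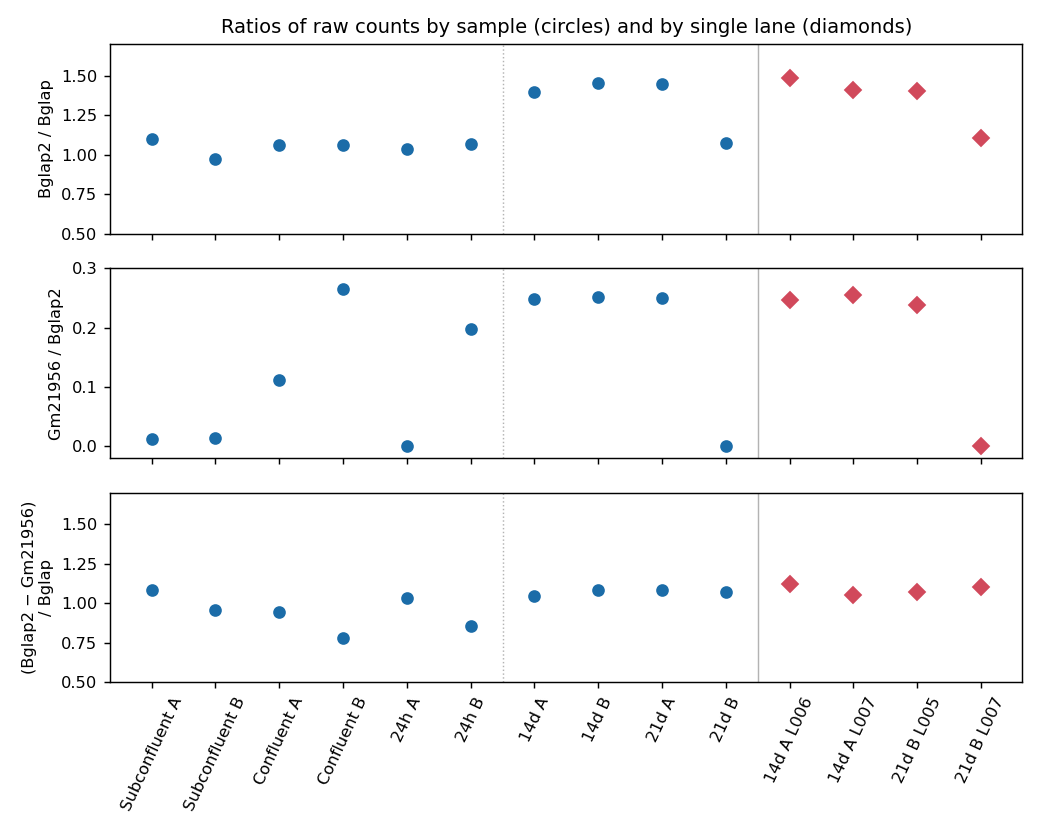
Ratios of raw counts on the y axes, for the 10 samples (circles) and the 4 lanes (diamonds); the dotted line separates the 2 sets of libraries. The ratio of Bglap2 to Bglap dropped to 1.07 and 1.10 in the 2 late columns without Gm21956, and the ratio after subtraction lay between 1.05 and 1.12 in all 8 late columns.

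Among the genes that passed the filter, with the 4 cluster genes left out of the ranking, those whose log2(RPKM + 1) ran most like Bglap over the 10 samples were Smoc2 (Pearson r = 0.993), Gm6821 (0.992), C130050O18Rik (0.990), Tgfb1 (0.990) and Metrnl (0.987). Of these 5, 3 stayed among the first 5 with log2(RPKM + 0.1), 0 with Spearman rho and 0 with log2 CPM, so the list depends on the scale. Smoc2, a secreted calcium-binding matrix protein, had a mean of 0.198 RPKM in Subconfluent cells and of 9.57 RPKM at 14d. Tgfb1, a growth factor stored in bone matrix, had means of 21.8 and 59.9 RPKM at these stages, a like profile with a far smaller span. Bglap2 and Bglap3 had r of 0.9995 and 0.978 with Bglap, and Gm21956 had 0.728. The points are 5 stages with 2 replicates each, and the early and late samples lie apart in these genes. The genes most like Gm21956 were Gm26279 (r = 0.965), Gm12343 (0.950), Gm13031 (0.950), Gm6763 (0.949) and Gm21312 (0.938), of which 3, 0 and 2 stayed among the first 5 with log2(RPKM + 0.1), Spearman rho and log2 CPM. Gm26279, annotated as a snRNA elsewhere on chromosome 3, had 877 and 355 counts at 14d, 324 counts in 21d replicate A, and 0 counts in the 7 other samples. It had 105 counts in lane L007 of 21d replicate B and 0 in the other 3 lanes, so it too was counted in some columns of a sample and not in others.

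The promoter of Bglap is shown because it is among the best-studied of osteoblast genes, and that of Bglap3 for comparison. Both are the 250 bases before the start in the RefSeq table of GRCm38.p6, on the reverse strand, at chr3:88384467-88384716 for Bglap and chr3:88372742-88372991 for the first of 3 starts of Bglap3. Capitals in Bglap mark, 5′ to 3′, the RUNX core ACCACA, the E box CACATG, the homeodomain core CAATTA, the ATF4 element TTACATCA and the TATA box TATAAA.
Bglap promoter: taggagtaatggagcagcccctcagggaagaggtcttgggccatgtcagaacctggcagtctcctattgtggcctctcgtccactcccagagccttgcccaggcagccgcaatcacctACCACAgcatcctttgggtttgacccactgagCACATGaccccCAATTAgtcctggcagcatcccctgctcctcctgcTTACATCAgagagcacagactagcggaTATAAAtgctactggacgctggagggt
Bglap3 promoter: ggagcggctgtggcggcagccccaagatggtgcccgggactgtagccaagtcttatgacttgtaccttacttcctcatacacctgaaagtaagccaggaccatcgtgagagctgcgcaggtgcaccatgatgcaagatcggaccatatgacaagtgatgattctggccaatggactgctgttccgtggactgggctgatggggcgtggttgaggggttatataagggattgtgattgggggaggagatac
Relative to the start, the RUNX core lay at -132 to -127, the E box at -100 to -95, the homeodomain core at -89 to -84, the ATF4 element at -54 to -47 and the TATA box at -27 to -22. These letters were searched on both strands in 300 bases around each start, they do not overlap one another, and they were picked with the Bglap sequence in view. Of 32851 promoters of this length, 16.8% held ACCACA, 14.2% CACATG, 8.0% CAATTA, 1.1% TTACATCA and 13.6% TATAAA. None of the 5 was found in the windows of the 3 Bglap3 starts or of Gm21956, which says only that these letters are not in those windows. The Bglap start, at 88384466, lies near its first coding base, at 88384415. The 3 starts of Bglap3, at 88372741, 88371479 and 88369831, lie farther from its first coding base, at 88369536. The windows are thus not placed alike, and the bases next to the Bglap3 coding sequence were not searched.

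The genes around osteocalcin were compared by edgeR's quasi-likelihood test over 20808 genes, and calls required more than 2-fold change at an adjusted p under 0.05. Of all genes tested, 16.3% were called higher and 11.3% lower in 21d than in Subconfluent cells, and 1.52% higher and 2.45% lower in 21d than in 14d cells. Scaled by library size alone, the calls of the first comparison turned from 3394 higher and 2346 lower to 2828 higher and 2951 lower, and the median change over all genes from 0.04 to -0.12 on the log2 scale. The same limit of confounded library sets holds for 21d against Subconfluent cells.

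Transcription factors that act on osteocalcin split between the directions. Of 13 regulators, all tested, 3 rose and 3 fell in 21d against Subconfluent cells, and their median change was -0.05 (log2) beside 0.04 for all genes. With DESeq2, limma, DESeq2 size factors or library size alone, and without Subconfluent replicate B, 3 rose and 4 fell. Cbfb, the binding partner of RUNX2, had a change of -0.98 on the log2 scale (edgeR adjusted p = 0.00032, SE 0.11), just under the 2-fold limit. Dlx3, a homeodomain activator of osteoblast genes, was at 0.202 ± 0.0118 RPKM in Subconfluent cells, 11.7 ± 0.0348 RPKM at 14d and 6.30 ± 0.145 RPKM at 21d (SD, n = 2). This is a log2 change of 5.09 (standard error 0.20, edgeR adjusted p = 4e-06), the highest of the list. Cebpb, which binds the promoter together with RUNX2, rose by 1.67 (0.31, adjusted p = 0.0031, edgeR), and Sp7, required for osteoblast formation, by 1.36 (0.09, adjusted p = 2.2e-05, edgeR). The factors that fell were the vitamin D receptor gene Vdr (log2 fold change -1.34), Msx2 (-1.59), a homeodomain repressor of osteocalcin, and Twist2 (-2.59), which restrains RUNX2, with edgeR adjusted p of 0.00053, 3.6e-05 and 0.0015. Twist2 went from 2.02 ± 0.281 to 0.298 ± 0.105 RPKM and Msx2 from 3.12 ± 0.035 to 0.955 ± 0.0181 RPKM (SD, n = 2), so the levels of both were low at each stage. Runx2, the master regulator of the lineage, changed by 0.89 (0.14, adjusted p = 0.0016, edgeR), which is under 2-fold. Atf4, which binds the ATF4 element and was at 238 ± 13.1 RPKM in Subconfluent cells, 112 ± 2.69 RPKM at 14d and 231 ± 13.6 RPKM at 21d (SD, n = 2), had a change of 0.07 on the log2 scale (edgeR adjusted p = 0.71, SE 0.14) over the whole course. In 21d against 14d no regulator passed both limits in edgeR, 7 had an unadjusted p under 0.05, DESeq2 called 0 and limma 1. That 1 was Atf4, whose log2 fold change was 0.96 (0.14, adjusted p = 0.0056) in edgeR.

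Of 10 genes that mature the protein, 9 were tested, and 2 of them rose and 0 fell in 21d against Subconfluent cells, where 16.3% of all genes were called higher and 11.3% lower. Vkorc1, the reductase that recycles vitamin K, rose from 60.7 ± 2.08 to 135 ± 7.77 RPKM (SD, n = 2), a change of 1.27 on the log2 scale (edgeR adjusted p = 0.0017, SE 0.21). Pcsk6, a proprotein convertase, was at 1.64 ± 0.171 RPKM in Subconfluent cells, 9.84 ± 1.03 RPKM at 14d and 5.21 ± 0.0380 RPKM at 21d (SD, n = 2), a change of 1.78 on the log2 scale (edgeR adjusted p = 7e-05, SE 0.15). Ggcx, the carboxylase that makes Gla residues, had 17.0 ± 0.727 and 26.6 ± 0.387 RPKM (SD, n = 2), a change of 0.77 on the log2 scale (edgeR adjusted p = 0.0019, SE 0.13) that is under 2-fold. Furin, which can cut the propeptide, had a change of -0.20 on the log2 scale (edgeR adjusted p = 0.33, SE 0.15). Without the limit on fold change, 4 of the 9 genes were higher and 3 lower. The list had a median log2 fold change of -0.18 beside 0.04 for all genes. In 21d against 14d the edgeR test called 0 of the 9, 2 had an unadjusted p under 0.05, and DESeq2 and limma called 0.

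Other proteins with Gla residues use the same carboxylase. Of 14 listed, 10 were tested and 5 rose in 21d against Subconfluent cells, while 0 fell, and the median log2 fold change was 1.13. Mgp, matrix Gla protein, an inhibitor of mineralization, was the most abundant of them, at 1718 ± 61.4 RPKM in Subconfluent cells, 6505 ± 1699 RPKM at 24h and 3300 ± 94.0 RPKM at 21d (SD, n = 2). Its change of 1.06 on the log2 scale (SE 0.21, edgeR adjusted p = 0.0042) was near the 2-fold limit and fell under it with library size alone (0.90) and without Subconfluent replicate B (0.98). By RPKM its mean was above those of all 4 cluster genes at each stage. Gas6, a ligand of the TAM receptors, rose by 1.20 on the log2 scale (0.09, adjusted p = 5.6e-05, edgeR) and reached 392 ± 7.58 RPKM (SD, n = 2). F7, coagulation factor VII, went from 0.0332 ± 0.00239 RPKM through 5.63 ± 0.719 RPKM at 14d to 11.9 ± 0.696 RPKM at 21d (SD, n = 2), a change of 8.58 on the log2 scale (edgeR adjusted p = 1.6e-06, SE 0.21). Ucma, a Gla protein first known from cartilage, and F10, coagulation factor X, also passed. Their log2 fold changes were 5.24 and 5.07 (standard errors 0.90 and 0.72, adjusted p = 0.0023 and 0.0015, edgeR). The Subconfluent replicates had 0.011 and 0.073 RPKM for Ucma and 0.011 and 0 RPKM for F10, so both fold changes start near 0. At 21d the 2 genes had only 1.10 ± 0.358 and 0.254 ± 0.0765 RPKM (SD, n = 2). On log2(RPKM + 1) with limma, where such low levels count for less, 2 of the list were called. In 21d against 14d, F7 alone was called in edgeR, with a log2 change of 1.0001 (0.14, adjusted p = 0.0048) that lies on the 2-fold limit, and DESeq2 called 0.

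Of 6 genes for receptors of osteocalcin and the insulin pathway of bone, 3 had enough counts to be tested. Gprc6a, the proposed receptor on pancreatic β cells and muscle, and Gpr37 had 0 counts in every sample, and Gpr158, a receptor of brain, had at most 1. Ptprv, a tyrosine phosphatase of osteoblasts that acts on the insulin receptor, rose from 7.54 ± 0.521 to 24.5 ± 1.13 RPKM (SD, n = 2), a change of 1.81 on the log2 scale (edgeR adjusted p = 8e-05, SE 0.16). Its mean was already 26.7 RPKM in Confluent cells. Insr, the insulin receptor, passed the limit narrowly at 1.01 (0.16, adjusted p = 0.0017, edgeR), and DESeq2 gave 1 call for the list in place of 2. Foxo1 had a change of 0.94 on the log2 scale (edgeR adjusted p = 0.0014, SE 0.15), under 2-fold.

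**Figure D5:**
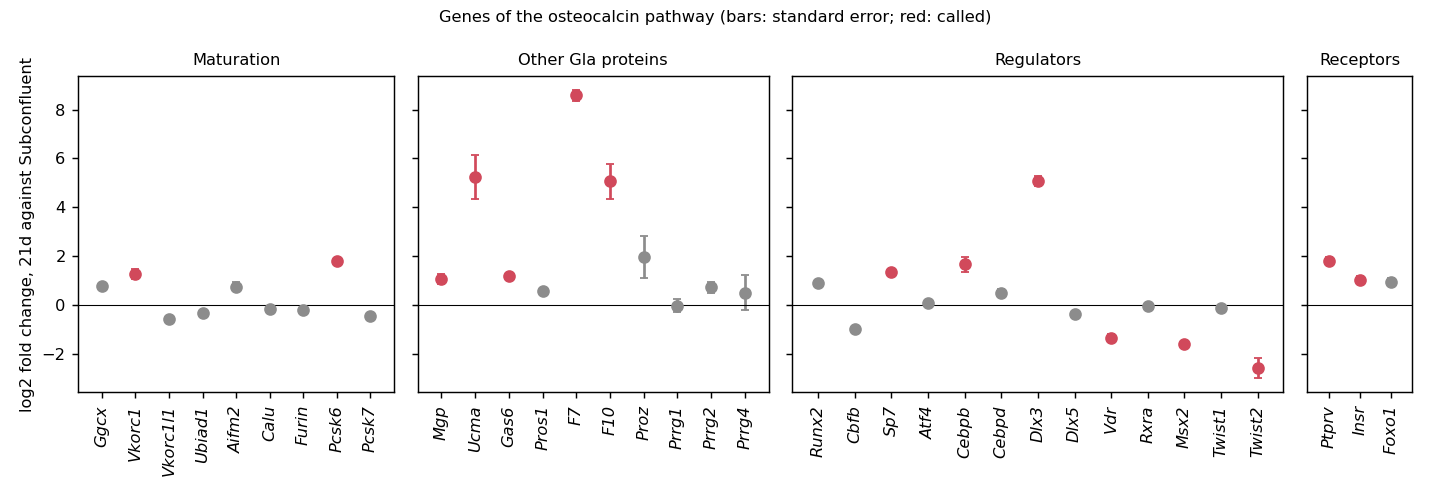
Log2 fold change of 21d against Subconfluent cells for the tested genes of 4 lists, with standard errors as bars; red points passed an adjusted p under 0.05 and 2-fold change. Dlx3 and F7 rose most in their lists, and Vkorc1 and Pcsk6 were the only called genes of the maturation list.

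The genes that flank the cluster did not move as a block. Of 14 annotated neighbours within 100 kb of its ends, 10 were matched to rows of the count table, and of these, all tested, 3 rose and 3 fell in 21d against Subconfluent cells. The risers were Gm6821 inside the cluster (10.7 on the log2 scale, SE 0.67, edgeR adjusted p = 2.1e-05), Tsacc (2.51, 0.26, adjusted p = 0.00018) and Sema4a, a semaphorin (3.79, 0.36, adjusted p = 0.00013), of which the last was at no more than 0.499 ± 0.0985 RPKM (SD, n = 2) by its 21d mean. Gm6821 shares 60.6% of its stretches of 51 bases with Paqr6 and 50.4% with Gm21956. A single read from those stretches cannot be placed by its own sequence, and the other read of its pair was not considered. Pmf1, the nearest annotated gene beyond Bglap and a part of the kinetochore, fell from 70.5 ± 3.82 to 13.6 ± 0.548 RPKM (SD, n = 2), a change of -2.25 on the log2 scale (edgeR adjusted p = 7.2e-05, SE 0.19). Smg5, of nonsense-mediated decay, and Cct3, a chaperonin subunit, fell as well, by 1.05 and 1.04 on the log2 scale (adjusted p = 8.1e-05 and 0.00051, edgeR). Paqr6, next to Bglap3, had a change of -0.05 on the log2 scale (edgeR adjusted p = 0.97, SE 0.84).

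Markers of other cell types were checked beside these results. The summed RPKM of 9 osteoblast markers ran from 11197 and 11469 in Subconfluent cells to between 24585 and 26454 at 14d, and were between 15245 and 16362 at 21d. Most of each sum came from Col1a1 and Col1a2, with means of 5549 and 3511 RPKM in Subconfluent cells and 9709 and 5224 RPKM at 14d. In 21d against 14d cells, 2 of the 9 were called higher (Dmp1 and Spp1) and 2 lower (Alpl and Col1a1). A set of 5 adipocyte markers summed to at most 1.09 RPKM, 3 muscle markers to at most 0.605 RPKM and 3 endothelial markers to at most 0.0558 RPKM in any sample, and Ptprc, Myod1 and Hbb-bt had 0 counts in all 10 samples. The 5 osteoclast and blood markers summed to 79.4 to 181.5 RPKM, mostly from Ctsk, which osteoblasts can also express, and Csf1r had a mean of 1.84 to 2.68 RPKM by stage. The 4 cartilage markers summed to 45.7 to 241 RPKM, mostly from Col2a1, whose means were 157 RPKM in Subconfluent, 206 RPKM in 14d and 75.7 RPKM in 21d cells. Of these markers, Col10a1 (log2 fold change 5.19, edgeR adjusted p = 0.00084) and Sox9 (1.11, edgeR adjusted p = 0.00045) rose in 21d against Subconfluent cells, and Col10a1 had a mean of 3.78 RPKM at 21d. The part of these markers in the results above was not tested. Total counts per sample ran from 44736156 to 162939333.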

How the data were processed

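RNA-seq of MC3T3-E1 cells at 5 stages (2 replicates each) was used. The authors deposited raw read counts per gene, and RPKM values, in which counts are scaled by gene length and by reads. The submitters' processing notes name FastQC, TopHat2 2.0.9, R 3.0.1 and the build mm10 (GRCm38). The counting tool and the annotation are not given in the sources used here. Gene identifiers were matched to GENCODE vM21. The merged column was used for samples with lane columns, and the lane sum as an alternative. Gene length was a column of the tables and was not otherwise used. The RPKM table ends 17 genes before the count table.

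Counts were fitted with edgeR 4.0.16 in R 4.3.3 (filterByExpr, TMM, 1 quasi-likelihood fit of all 10 samples, Benjamini-Hochberg over 20808 genes), with limma 3.58.1 and DESeq2 1.42.0 as alternatives. Standard errors are the log2 fold change over the square root of F. The edgeR fit was tested on simulated counts for 21d against Subconfluent cells. It called 121 of 200 genes that were changed by more than 2-fold, and 3.97% of calls fell on unchanged genes. A gene that was not called may therefore still have changed. Sequences were compared with Python 3.11.15 scripts.

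The 4 genes and the gene lists were chosen with earlier results of these data known. Genes named are the 4, the called and defining genes of each list, the nearest and the called neighbours, and the 5 genes most like Bglap and Gm21956. A further regulator was taken off its list and is not reported here. Total counts per sample ran from 44736156 to 162939333. Intervals cover counting error only. Between replicates, the differences A minus B correlated from -0.41 to 0.42 over 10 pairs of stages. The main fit did not treat the letters as pairs. Within each library set, each letter carried the same index, and A and B also differed in depth. These correlations therefore cannot tell whether the letters pair samples. Alternatives were other scalings, filters, tools and pseudocounts, a replicate block, and each sample left out.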

Additional observations from a re-analysis of the deposited data

How the results depend on the processing

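The log2 fold changes of Bglap, Bglap2 and Bglap3 kept their sign under all scalings, filters and tools tried. In 21d against 14d, those of Bglap (-0.17, standard error 0.49) and Bglap2 (-0.34, 0.48) were smaller than their standard errors. The alternatives reuse the same counts, so a kept sign there does not show a fall. In 21d against Subconfluent cells they ranged over 8.16 to 9.95, 8.54 to 10.15 and 6.31 to 7.21 when 1 sample was left out, with both ends set by a Subconfluent replicate, and Bglap3 was at 5.31 with limma on log2(RPKM + 1). In 21d against 14d, Bglap2 ranged over -0.64 to -0.090, the ends without 21d replicates A and B, and Bglap3 over -1.76 to -0.14, the ends without 14d replicates A and B.

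The share of Bglap2 at 21d was 47.1% in counts and 60.6% without Gm21956 in the sum, an alternative chosen after seeing the data, and that of Bglap3 was 8.78% in counts and 2.98% with lane L007 for replicate B. The lane sums of 14d replicate A were 66691 for Bglap, 97566 for Bglap2, 17873 for Bglap3 and 24328 for Gm21956, and those of 21d replicate B were 66457 for Bglap2, 12155 for Bglap3 and 13800 for Gm21956.

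In 21d against Subconfluent cells, any fold change gave 7 maturation genes and 10 regulators, and limma on log2(RPKM + 1) gave 2 Gla proteins. The receptor list gave 1 gene with DESeq2 size factors, library size alone, no filter, DESeq2 or limma with either pseudocount, and 1 to 2 with a sample left out, as Insr fell under 2-fold without Subconfluent replicate B or 24h replicate B. In 21d against 14d, the maturation list gave 1 gene with lane sums or any fold change and 0 to 1 with a sample left out (Pcsk6, without 14d replicate A). The Gla proteins gave 0 with DESeq2 size factors, DESeq2 or limma on log2(RPKM + 1), 2 with any fold change, and 0 to 1 with a sample left out (0 without either Confluent or 24h replicate, 14d replicate B or 21d replicate B). The regulators gave 1 with library size alone, no filter or limma with either pseudocount, 4 with any fold change, and 0 to 1 with a sample left out (Atf4, without 21d replicate B). The cause of these shifts was not tested beyond the changes near 2-fold.

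With the replicate letter as a block, the Gla proteins in 21d against 14d gave 0 in place of 1, and no other count here changed. Of the 5 genes most like Bglap, 3 stayed with log2(RPKM + 0.1), 0 with Spearman rho and 0 with log2 CPM, so that list depends on the scale. Of the 5 most like Gm21956, 3, 0 and 2 stayed. In Subconfluent cells, depth limits Gm21956 most, at 1 count per replicate, and Bglap, Bglap2 and Bglap3 had 62 to 108 counts per replicate.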
